A study of Homo sapiens with 8 samples.

Results

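The genes described here are 47 genes of the amino acid response, the programme run by the transcription factor ATF4, together with enzymes and transporters of amino acids and the synthetases that load amino acids on transfer RNAs (tRNAs). They were chosen from a measured value, since ASNS was among the lowest genes of the array with miR-490-5p, and were then taken by gene symbol from the array annotation. All 47 were found among the 43317 named genes of the array. They fall into 8 regulators, 8 stress outputs, 11 amino acid enzymes, 7 amino acid transporters and 13 genes of tRNA export and loading.

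The study hybridized 8 Agilent arrays, each with 2 dyes, to RNA from human cancer lines in culture. In HCT116 colorectal cancer cells 1 array carried miR-490-5p and 1 carried miR-490-3p, in A498 and in 786-O renal cancer cells 1 array each carried miR-139-5p and miR-139-3p, and in MDA-MB-231 breast cancer cells 1 array each carried si-GINS1_1 and si-GINS1_2, written siRNA 1 and siRNA 2 here, which target the replication gene GINS1. On every array Cy5 held RNA of the transfected cells and Cy3 held RNA of mock cells of the same line, labelled as having had no transfection. A ratio therefore joins the effect of the RNA with that of the Lipofectamine RNAiMAX transfection itself, and the 2 cannot be told apart in these arrays. The dyes were never swapped, and the labels do not state a dose or a time or whether both arrays of a line shared 1 mock extract. All values below are log2 ratios of transfected over mock unless a sentence says level, so that -1 is a halving. A gene with several probes is given by the brightest one, and a gene counts as measured on an array where its probe was well above background in at least 1 channel.

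When amino acids run short or unfolded protein builds up in the endoplasmic reticulum (ER), kinases phosphorylate the initiation factor eIF2, most translation slows, and the messenger of ATF4 is translated more. ATF4 pairs with C/EBP proteins on short promoter elements and raises genes for amino acid synthesis, uptake and tRNA loading, which cancer cells use to sustain growth. The same pathway also raises its own brakes, among them TRIB3 and PPP1R15A, and the death factor DDIT3.

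The microRNA sequences are shown because the members were chosen on the array of one strand and the sister strand was transfected into the same line. Both come from 1 hairpin on chromosome 7, with hsa-miR-490-5p at chr7:136903205-136903224 and hsa-miR-490-3p at chr7:136903242-136903263 on the plus strand (RefSeq, GRCh38.p14), and capitals mark the seed, bases 2 to 8.
hsa-miR-490-5p: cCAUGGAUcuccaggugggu
hsa-miR-490-3p: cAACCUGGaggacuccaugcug
The seeds of the strands differ. The DNA match of neither seed was found in any of the 59 array probes for the members, against 261 of all 58201 probes for miR-490-5p and 227 for miR-490-3p. A probe covers a short stretch of a transcript, so this says nothing of the rest of the messenger.

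A second set of sequences shows what the promoters of the members hold that the choice did not use. The letters TGATGNAA, the core of the element that C/EBP and ATF proteins bind, were searched on both strands from 250 bases before to 50 after each annotated start (RefSeq, GRCh38.p14). A promoter was listed for 39 of the 47 members, and 16 of these (41.0%) held the motif in at least 1 window, against 1217 of 27305 genes with a promoter (4.46%). Counted by windows, 16 of 63 windows of the members (25.4%) and 1270 of 35116 windows of all genes (3.62%) held it. The members are in part known targets of ATF4, so this share is a description of the list. The 250 bases before the start of ASNS, on the minus strand at chr7:97872409-97872658, are printed with the motif in capitals.
ASNS: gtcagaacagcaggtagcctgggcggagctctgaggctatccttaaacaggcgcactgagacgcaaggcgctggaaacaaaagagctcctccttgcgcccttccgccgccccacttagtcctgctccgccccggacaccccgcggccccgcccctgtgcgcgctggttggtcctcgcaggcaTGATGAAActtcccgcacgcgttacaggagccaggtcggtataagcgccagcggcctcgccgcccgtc
In ASNS the motif began at base -68, counting the start as 0. Printed below are the other matches whose whole window, with 16 bases on each side, lies before the start. Each is in the direction of its gene, with the motif or its reverse complement in capitals.
ATF3: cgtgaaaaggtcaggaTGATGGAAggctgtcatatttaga
CEBPG: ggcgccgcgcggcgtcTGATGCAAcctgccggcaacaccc
CHAC1: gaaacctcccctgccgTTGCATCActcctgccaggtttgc
SLC1A5: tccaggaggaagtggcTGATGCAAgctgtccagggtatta
GARS: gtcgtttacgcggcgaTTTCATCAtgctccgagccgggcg
AARS: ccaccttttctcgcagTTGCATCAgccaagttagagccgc
These lie at chr1:212565200-212565239, chr19:33374055-33374094, chr15:40953246-40953285, chr19:46784888-46784927, chr7:30594829-30594868 and chr16:70289670-70289709 in that order. The match began at base -191 in ATF3, -42 in CEBPG, -209 in CHAC1, -97 in SLC1A5, -33 in GARS and -187 in AARS. The other 9 genes with a match were JDP2, SLC3A2, SLC7A1, SLC1A4, NARS, CARS, MARS, TARS and IARS, where it began between base -16 and base 37. The matches of JDP2 (base -16) and IARS (base -13) also ended before the start. Of the 16 genes, 7 belong to the synthetases. With miR-490-5p the members with the motif had a median log2 ratio of -0.97 (15 measured), and the members whose promoter was listed without it also had -0.97 (22 measured), so the 2 sets stood at the same median. TRIB3 and DDIT3 were among those without it in these windows. Bases farther from the start were not searched.

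**Figure D1:**
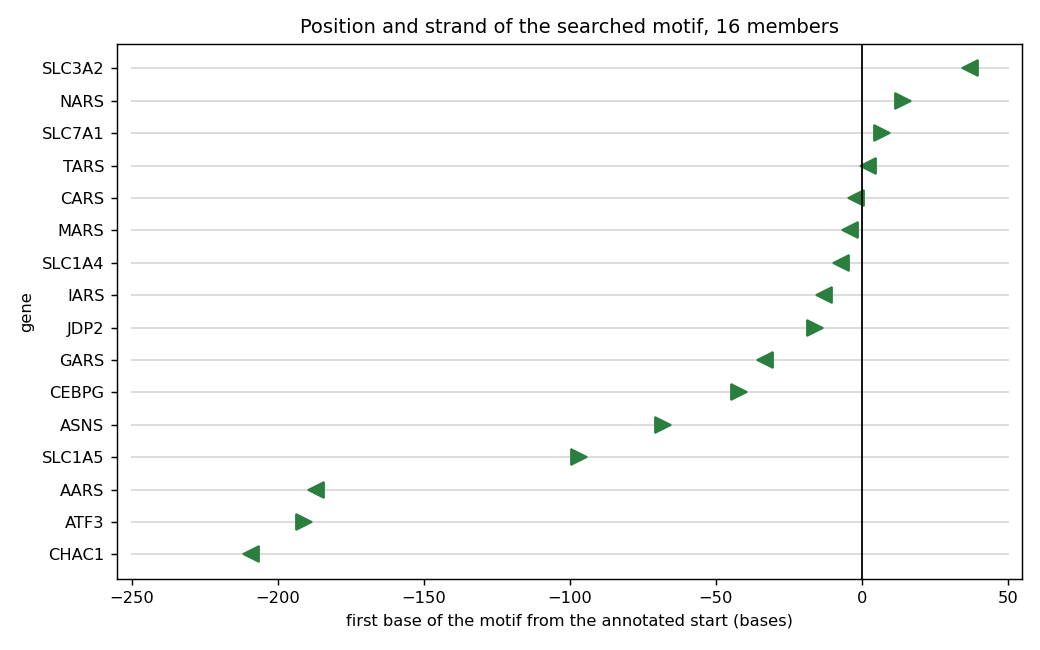
Position of the searched motif in the 16 members that held it, on the x axis as bases from the annotated transcription start (0), with genes on the y axis ordered by position. A triangle that points right marks the motif on the strand of the gene and one that points left its reverse complement. In 11 of the 16 genes it began within 50 bases of the start on either side of it.

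In mock cells the members were present in all 4 lines with few exceptions. PHGDH, the first enzyme of serine synthesis, was not well above background in 786-O in either channel, CBS and STC2 were not well above background in the mock channels of MDA-MB-231, and VLDLR and SLC1A4 were not in HCT116. SLC1A4 was also below that limit in MDA-MB-231. The level of a gene was compared between lines only within that gene, as log2 intensity and as the mean of the 2 mock channels of a line. ASNS had a mock level of 13.65 in A498, 13.39 in HCT116, 12.62 in 786-O and 10.64 in MDA-MB-231. A498 and HCT116 were neighbours that stood 0.26 apart, while the mock channels of a line differed with an SD over genes of 0.07 to 0.10. ATF4 had 13.94 in HCT116, 13.86 in A498, 12.91 in 786-O and 12.13 in MDA-MB-231, so the 2 highest lines lay within that spread. MDA-MB-231 had the lowest mock level for 37 of the 47 members and A498 the highest for 29. These levels are a description of 4 lines and carry no test.

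The lines were checked against defining markers in the mock channels. All 4 renal markers were well above background in A498 and 786-O, against 1 in MDA-MB-231 and 2 in HCT116. Of 6 colorectal markers 2 were above background in HCT116, EPCAM, which was so in every line, and CDX2, in HCT116 alone. VIL1, CDH17, KRT20 and LGALS4 did not meet that limit in any line, HCT116 included. All 4 breast markers were above background in MDA-MB-231 and in 786-O, and 3 of 4 in A498 and HCT116, so that list did not set MDA-MB-231 apart. Of 4 blood markers 1 or 2 were above background in each line. GINS1, the siRNA target, had 40.3% of the mock level left with siRNA 1 (log2 ratio -1.31) and 26.4% with siRNA 2 (-1.92). The mock channels of the HCT116 arrays agreed closely: over 45 members the largest difference was 0.23. The median mock background on the miR-490-5p array was 17 units of brightness, against 14 on the other 7 arrays, and its part in the result was not tested. Against the mock channel of the other HCT116 array, an alternative chosen after seeing the data, 20 members were at or below -1 in place of the 21 given next, with a median of -0.96. Of all genes 1.01% were at or below -1 in that setting.

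With miR-490-5p in HCT116, 43 of the 45 measured members were below 0 and 21 were at or below -1. These values include the one that chose the genes and are given without a test, as there is 1 array. Over all genes of this array 1.09% were at or below -1 and 0.297% at or above 1, where no member stood. The median of the members was -0.93, against 0.01 for all 21544 genes measured, of which 46.5% were below 0. In bulk RNA, fewer cells of a kind and less RNA per cell cannot be told apart. Just inside the threshold lay IARS (-1.02) and WARS (-1.02), and just outside it NARS (-0.97) and XPOT (-0.93).

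**Figure D2:**
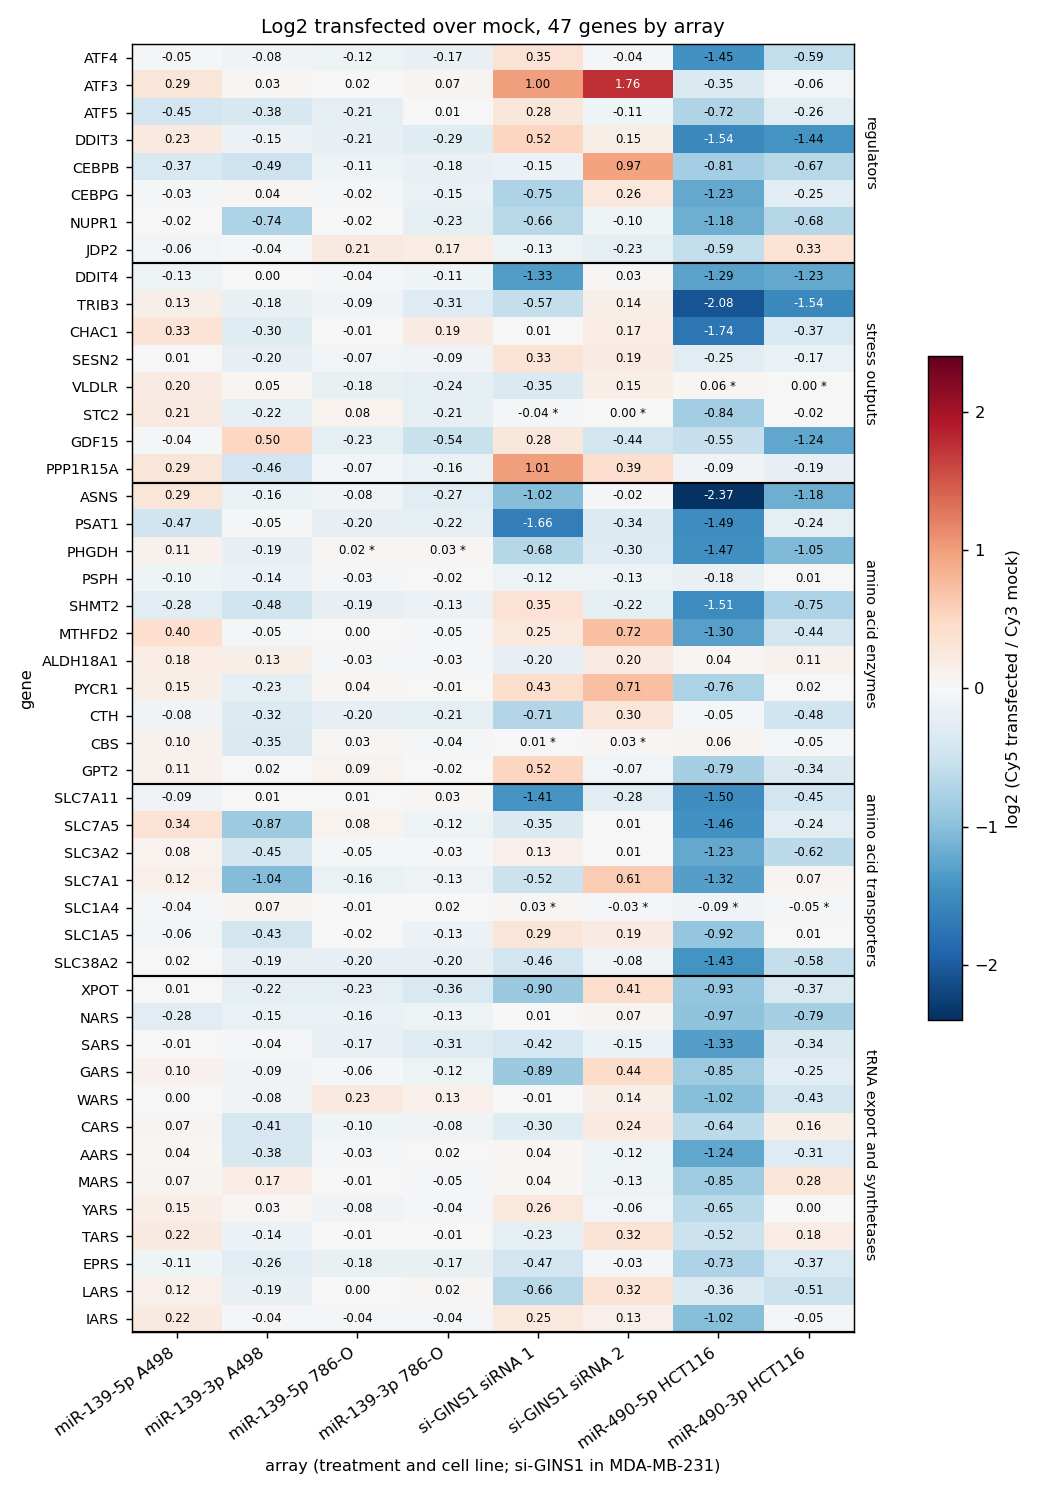
Log2 ratio of transfected over mock for the 47 genes (y axis, by role) on the 8 arrays (x axis), with blue below 0 and red above, and each value printed. An asterisk marks a gene that was not well above background in both channels. The miR-490-5p column is blue for nearly all genes, from -2.37 for ASNS, the miR-490-3p column is blue for fewer and the 4 miR-139 columns are pale.

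With miR-490-3p in the same line 35 of 45 members were below 0, 6 were at or below -1 and 0 were at or above 1, where 0.672% and 0.398% of all genes stood. The 6 were TRIB3, DDIT3, GDF15, DDIT4, ASNS and PHGDH. The median was -0.34, against 0.01 for all genes, of which 48.2% were below 0. This count and median depended on the loess step. With median centring in place of loess, 2 members were at or below -1 and 27 of 45 were below 0. Of all genes 0.329% and 32.4% were. The median was then -0.08 where that of all genes was 0.08, so that the members lay 0.16 below all genes. For miR-490-5p the same change gave 19 members at or below -1 and a median of -0.83.

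**Figure D3:**
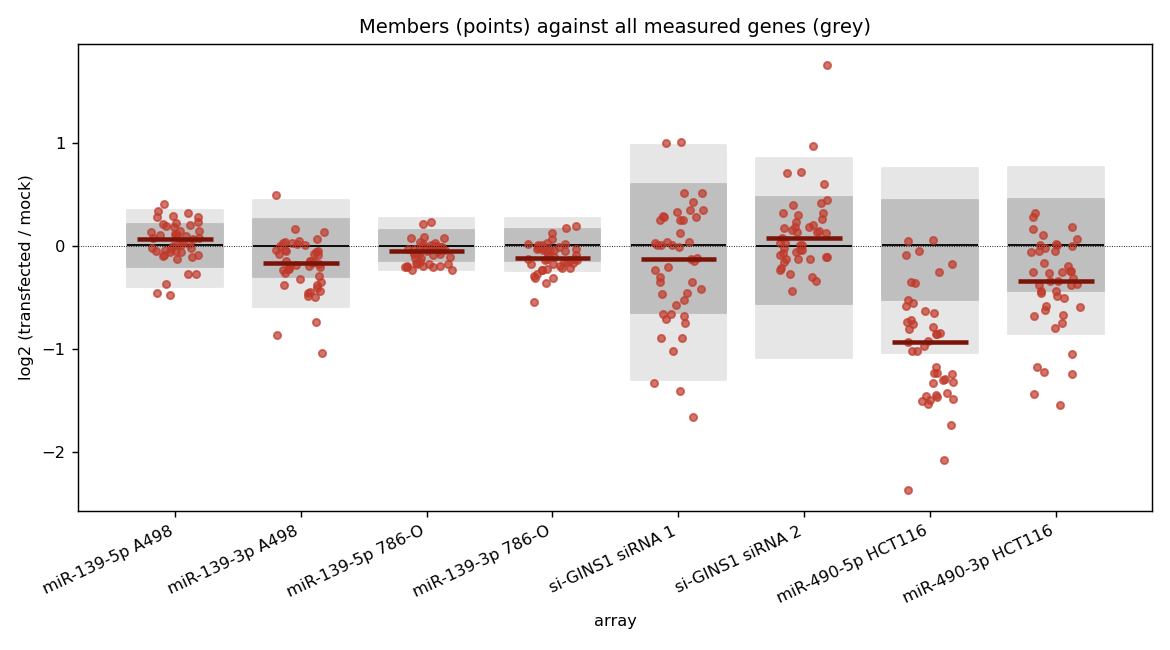
Log2 ratio of transfected over mock (y axis) of the measured members (points) on each array (x axis). The light and dark grey bands span percentiles 1 to 99 and 5 to 95 of all measured genes, the thin black line is their median and the thick line the median of the members, which sits at -0.93 with miR-490-5p, below percentile 5 of all genes (-0.53), and between -0.34 and 0.07 on the other 7 arrays. The sign of the median turned with the processing on 4 of these 7, namely siRNA 1, both miR-139-3p arrays and miR-139-5p in 786-O. For miR-139-5p in 786-O it turned only when dye bias was removed by subtracting a mean that holds the low miR-490 values.

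The regulators came first. ATF4, the lead factor, had a mock level of 14.05 and a transfected level of 12.61 on the miR-490-5p array, and 13.83 and 13.24 on the miR-490-3p array. Its ratios were -1.45 and -0.59, against values from -0.17 to 0.35 on the other 6 arrays. ATF4 was thus low with miR-490-5p and less so with miR-490-3p, and near 0 elsewhere. Its probe lies at chr22:39918577-39918636 (hg19).

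DDIT3, which encodes CHOP, a factor that promotes cell death under ER stress, had a ratio of -1.54 for the 5p strand and -1.44 for the 3p strand. On the other arrays it had 0.23, -0.15, -0.21, -0.29, 0.52 and 0.15, in the order miR-139-5p, miR-139-3p (A498), miR-139-5p, miR-139-3p (786-O), siRNA 1 and siRNA 2. DDIT3 therefore stood at about the same value with both strands, unlike ATF4. CEBPG, a C/EBP protein that pairs with ATF4, had -1.23 and -0.25 with the strands, and NUPR1, a small stress-induced nuclear protein, -1.18 and -0.68. JDP2, which represses AP-1 sites, had -0.59 and 0.33, on opposite sides of 0. ATF3, another stress factor of the family, had the highest ratio of the 8 regulators with miR-490-5p, -0.35. All 8 regulators were below 0 on that array, with a median of -0.99, and 7 of 8 on the other, with a median of -0.43.

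Among the stress outputs TRIB3, a pseudokinase that binds ATF4 and limits it, had a mock level of 12.95 and a transfected level of 10.87 with miR-490-5p, and of 12.78 and 11.23 with miR-490-3p. The ratios were -2.08 and -1.54, or 4.22-fold and 2.92-fold lower in the transfected cells. On the other arrays TRIB3 lay between -0.57 and 0.14. It was the lowest member with miR-490-3p, at rank 21 from the lowest of 21868 genes, and rank 12 of 21544 with miR-490-5p.

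CHAC1, which cleaves glutathione, separated the strands. Its level in miR-490-5p cells was 7.58 against 9.32 in mock, and in miR-490-3p cells 8.99 against 9.36, giving ratios of -1.74 and -0.37. A second, dimmer CHAC1 probe gave -0.48 and -0.23, the same order with a smaller gap. DDIT4, an inhibitor of the growth kinase complex mTORC1, did not separate them, with -1.29 and -1.23. GDF15, a secreted stress hormone, was the reverse, at -0.55 for miR-490-5p and -1.24 for miR-490-3p. PPP1R15A, which directs the removal of phosphate from eIF2, had -0.09 and -0.19. STC2, a secreted glycoprotein, had -0.84 and -0.02. Of the 7 measured outputs 3 were at or below -1 with each strand, TRIB3 and DDIT4 with both, CHAC1 for the 5p strand alone and GDF15 for the 3p strand alone.

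ASNS, asparagine synthetase, makes asparagine from aspartate and glutamine, and its probe lies at chr7:97481461-97481520 (hg19, minus strand). On the miR-490-5p array its level was 13.45 in mock and 11.09 in transfected cells, and on the miR-490-3p array 13.32 and 12.14. The ratios were -2.37, rank 6 of 21544 genes from the lowest, and -1.18, or 5.16-fold and 2.26-fold lower in the transfected cells. With miR-139-5p the ratio was 0.29 in A498 and -0.08 in 786-O, with miR-139-3p -0.16 and -0.27, and in MDA-MB-231 -1.02 with siRNA 1 and -0.02 with siRNA 2. ASNS was thus at or below -1 on 3 arrays of 8, and on the remaining 5 it lay between -0.27 and 0.29.

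The serine and one-carbon enzymes split by step. PHGDH, at the first step of serine synthesis, had -1.47 on the array of the 5p strand and -1.05 on that of the 3p strand. PSAT1, at the second step, had -1.49 and -0.24, and PSPH, at the third, -0.18 and 0.01. SHMT2 and MTHFD2, which move one-carbon units from serine in mitochondria, had -1.51 and -1.30 with miR-490-5p. With the sister strand they had -0.75 and -0.44. PYCR1, at the last step of proline synthesis, had -0.76 and 0.02, and ALDH18A1, at the first step of the same path, 0.04 and 0.11. CBS, which starts the path from homocysteine to cysteine, was the highest enzyme with miR-490-5p (0.06), at a mock level of 5.93. CTH, the next enzyme of that path, had -0.05 and -0.48. Of the 11 enzymes 5 with the 5p strand and 2 with the 3p strand were at or below -1.

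The transporters had the lowest median of the 5 role groups with miR-490-5p, -1.37 over 6 measured, of which 5 were at or below -1. With miR-490-3p their median was -0.35 and 0 of 6 were. SLC7A11, the cystine and glutamate exchanger, had -1.50 and -0.45. SLC7A5, which carries leucine and other large neutral amino acids, had -1.46 and -0.24, and SLC3A2, the shared heavy chain of SLC7A11 and SLC7A5, -1.23 and -0.62. SLC38A2, a sodium-coupled carrier of small neutral amino acids, had -1.43 and -0.58, and its second probe -1.16 and -0.56. SLC7A1, the arginine and lysine carrier, had -1.32 and 0.07. SLC1A5, the glutamine carrier, was the highest of the group with miR-490-5p at -0.92, and had 0.01 with miR-490-3p. The transporters were thus near -1 or lower with one strand and spread from -0.62 to 0.07 with the other.

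All 13 genes of tRNA export and loading were below 0 with miR-490-5p, with a median of -0.85, and 4 were at or below -1. These were SARS (-1.33), AARS (-1.24), IARS (-1.02) and WARS (-1.02), which load serine, alanine, isoleucine and tryptophan. LARS, for leucine, was the highest at -0.36. With miR-490-3p 9 of 13 were below 0, the median was -0.31, and values ran from -0.79 for NARS, for asparagine, to 0.28 for MARS, for methionine. Other probes of these genes gave smaller sizes. IARS had -0.97 and -0.56 in its other 2 probes with miR-490-5p, SARS -0.22 and -0.93, and MARS -0.18 in its second probe. MARS and DDIT3 lie on opposite strands with their 3' ends together.

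**Figure D4:**
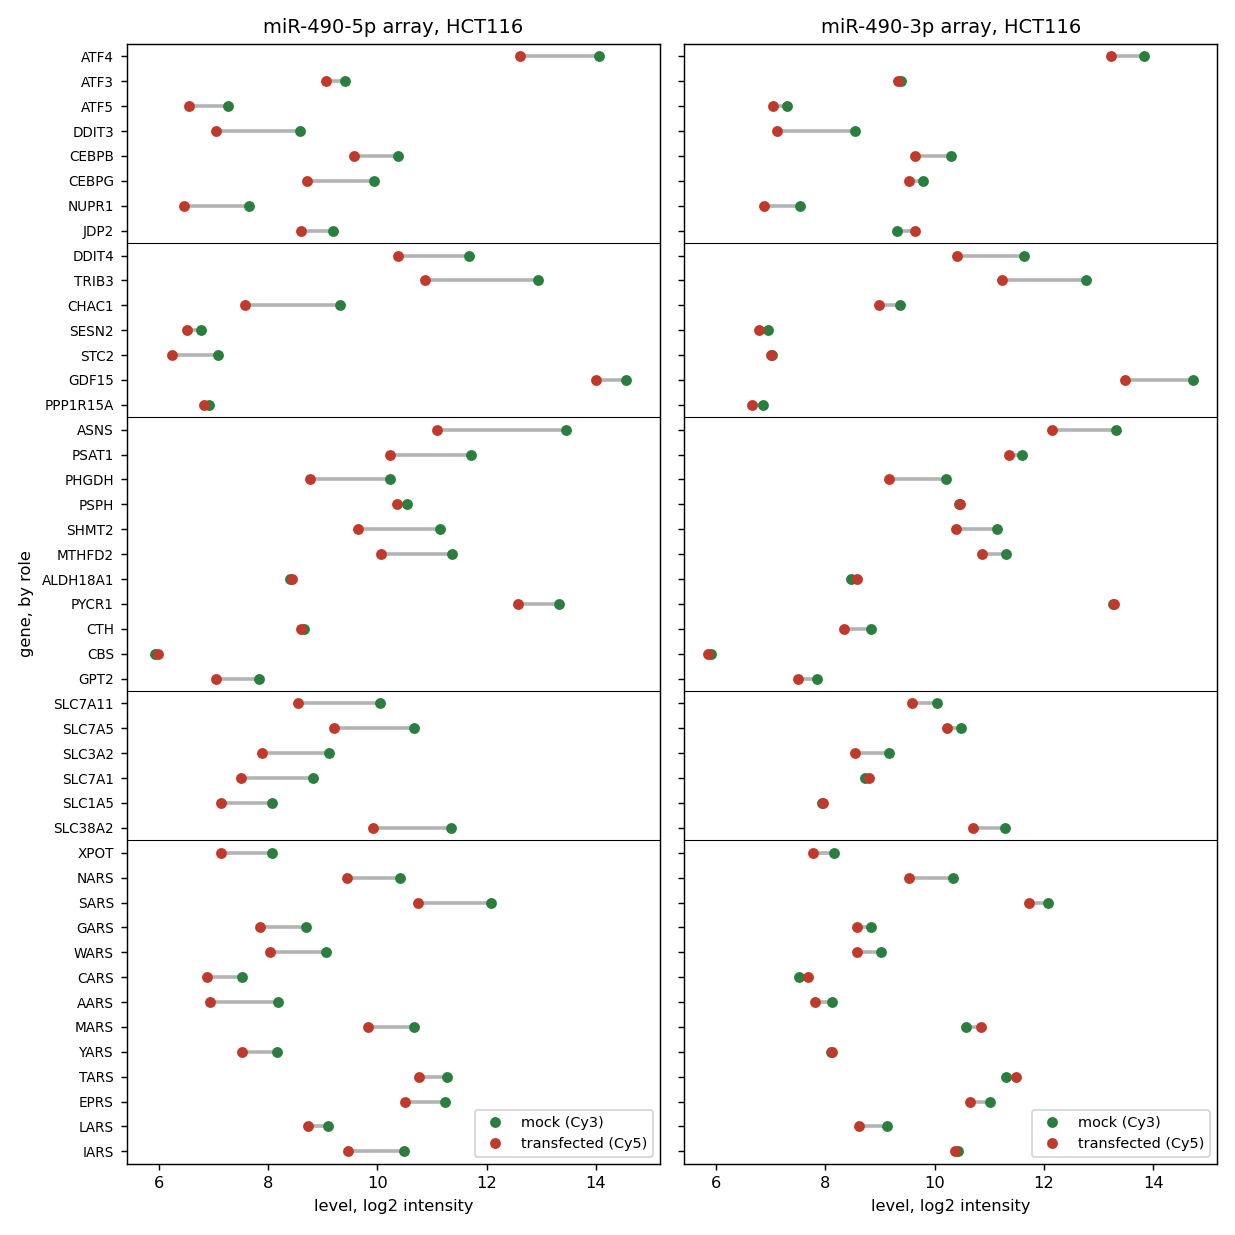
Levels (x axis, log2 intensity after normalization) of the 45 members measured in both channels of both HCT116 arrays (y axis, by role), mock in green and transfected in red, joined by a grey line. On the miR-490-5p array (left) the red points lie left of the green for 43 members, and the ASNS line, from 13.45 to 11.09, is the longest. On the miR-490-3p array (right) the lines are shorter for most genes, with those of TRIB3, DDIT3, DDIT4 and GDF15 among the longest.

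The strands were set side by side by the difference of the ratios, miR-490-3p minus miR-490-5p. The ratios may share a mock extract, and each strand has 1 array, so the difference is given with no test. It was at or above 1 for 7 of 45 members, where 0.837% of all 20792 genes stood, and at or below -1 for 0, where 0.442% did. The 7 were SLC7A1 (1.38), CHAC1 (1.37), PSAT1 (1.25), SLC7A5 (1.21), ASNS (1.19), MARS (1.14) and SLC7A11 (1.05). The median difference of the members was 0.61, and of all genes 0.00. Transfected channels compared directly, without the mock channels, gave 8 members and a median of 0.63, again an alternative chosen after seeing the data. The direction of this difference follows in part from the choice of the members on the miR-490-5p array. By role the median difference was 0.99 for the transporters, 0.65 for tRNA export and loading, 0.48 for the regulators, 0.45 for the enzymes and 0.09 for the stress outputs. DDIT4 (0.07) and DDIT3 (0.10) lay near 0, CTH (-0.44) and GDF15 (-0.69) below it.

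Other genes of the pathway, listed apart from the members, were measured on the same arrays. PCK2, a mitochondrial enzyme that makes phosphoenolpyruvate, was the lowest of the other ATF4-linked genes with -1.17 with miR-490-5p, and KLHL24 the highest with -0.07. All 7 measured genes of that list were below 0 with miR-490-5p, 3 of them at or below -1, with a median of -0.60, and all 7 with miR-490-3p, with a median of -0.24. The 13 genes of the eIF2 kinases and eIF2 had medians of -0.13 and 0.20, from EIF2B2 (-0.84 with miR-490-5p), a subunit of the exchange factor of eIF2, to EIF2AK1 (0.31), the heme-regulated kinase. The 8 other cytosolic synthetases had -0.22 and 0.28, from QARS (-0.76), for glutamine, to RARS (0.71), for arginine. The mitochondrial synthetases had -0.04 over 16 genes and 0.06 over 17, from TARS2 (-0.43) to IARS2 (0.35). None of these 3 lists had a gene at or below -1 with either strand.

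The ER chaperones stood lower than the members. All 12 were below 0 with both strands, and 9 were at or below -1 with the first and 8 with the second, and their medians were -1.33 and -1.10. PDIA4, a disulfide isomerase of the ER, had -2.39 and -1.57, and DNAJB9, a co-chaperone of the ER, -0.37 and -0.25. HSPA5, the main ER chaperone, had -2.35 and -1.41. Their median difference between the strands was 0.28, against 0.61 for the members. The part of ER chaperones in the values of the members was not tested.

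The arrays with si-GINS1 were not those on which ASNS was chosen, though earlier results of these data were known when the members were listed. In MDA-MB-231 limma called 2 of 45 tested members, both higher and 0 lower, at an adjusted p under 0.05, where 3.33% of all 27806 probes were called higher and 3.63% lower. The replicates are 2 siRNAs in 1 line. The spread in the fit is pooled over these siRNAs and the pairs of renal lines, so it does not measure that between cultures. ATF3 had 1.001 with siRNA 1 and 1.76 with siRNA 2 and was called at a mean of 1.38 ± 0.54 (SD, n = 2, limma adjusted p = 0.0279). Its other 3 probes lay between -0.02 and 0.31 on these arrays, and the median over its probes was 0.23 (limma adjusted p = 0.113), so the call rests on the brightest probe. PYCR1 had 0.43 and 0.71 and was called at a mean of 0.57 ± 0.20 (SD, n = 2, limma adjusted p = 0.0396), and its second probe had 0.21 and 0.19.

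The siRNAs differed over the other members. With siRNA 1, 4 of 46 measured members were at or below -1, where 2.07% of all genes stood, and 2 at or above 1, where 0.945% did. With siRNA 2, 0 of 45 were at or below -1 and 1 at or above 1, against 1.29% and 0.592% of all genes. PSAT1 had -1.66 with siRNA 1 and -0.34 with siRNA 2. SLC7A11 had -1.41 and -0.28, DDIT4 -1.33 and 0.03, and ASNS -1.02 and -0.02. GINS1 itself was lower with siRNA 2. PSAT1, SLC7A11, DDIT4 and ASNS were low with siRNA 1 and closer to 0 with siRNA 2, and the cause of this was not tested. Their limma adjusted p was 0.135 for PSAT1, 0.133 for SLC7A11, 0.271 for DDIT4 and 0.263 for ASNS, and none was called. PPP1R15A had 1.01 and 0.39 (limma adjusted p = 0.0916).

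The remaining members named for the siRNAs were the ends of their role groups. CEBPG had -0.75 with siRNA 1 and 0.26 with siRNA 2, XPOT, the export receptor of tRNAs, -0.90 and 0.41, and GARS, for glycine, -0.89 and 0.44. These 3 lay on opposite sides of 0. GPT2, an alanine transaminase, had 0.52 and -0.07, YARS, for tyrosine, 0.26 and -0.06, and SLC1A5 0.29 and 0.19. JDP2 had -0.13 and -0.23, GDF15 0.28 and -0.44, MTHFD2 0.25 and 0.72, SARS -0.42 and -0.15, and SLC7A1 -0.52 and 0.61. The median of the members was -0.12 with siRNA 1 and 0.07 with siRNA 2, against 0.01 for all genes on each. The sign for siRNA 1 turned with the processing: the median was 0.28 with median centring, where that of all genes was 0.18, and 0.05 with the dye bias removed. The mean of the arrays of other lines, subtracted to remove dye bias, holds the low miR-490 values, which raises the members. ATF4 had 0.35 and -0.04 (limma mean 0.16 ± 0.27, SD, n = 2, adjusted p = 0.397). The ER chaperones had a median of 0.55 with siRNA 1 and -0.30 with siRNA 2, with HSPA5 at 1.63 and -0.48.

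**Figure D5:**
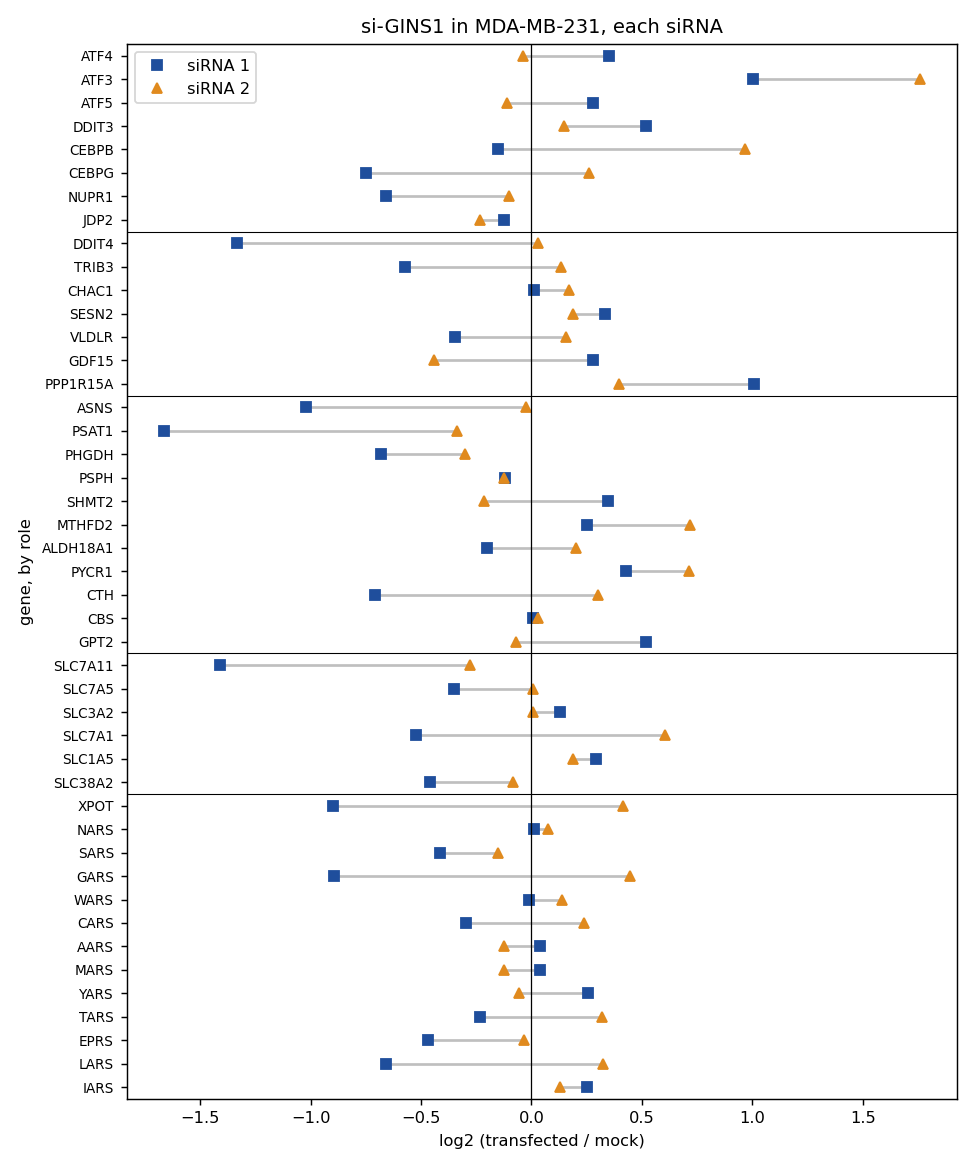
Log2 ratio of transfected over mock (x axis) of the members measured on both si-GINS1 arrays (y axis, by role), with siRNA 1 as squares and siRNA 2 as triangles joined by a line. With siRNA 2 ATF3 is the farthest to the right, at 1.76. With siRNA 1 PPP1R15A (1.007) and ATF3 (1.001) are the farthest to the right. PSAT1, SLC7A11, DDIT4 and ASNS lie at or left of -1 with siRNA 1, while with siRNA 2 they lie between -0.34 and 0.03.

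The number of called members in MDA-MB-231 rested on single arrays and on the fit. Without siRNA 1, 8 of 45 members (17.8%) were called, where 23.4% of all probes were, and without siRNA 2, 21 of 46 (45.7%), of which 15 were lower, where 31.9% of all probes were. Each of these fits leaves 1 array, which is assumed to vary like the other groups. In a fit of these 2 arrays alone, with a variance trend and robust prior, or on the scanner log ratio, 0 were called, with 2, 8 and 9 members at an unadjusted p under 0.05. Of all probes 0%, 0% and 0.27% were called there.

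For each strand of miR-139 limma called 0 of 46 tested members, and 0 for the difference of the strands. Over all probes 0.0129% were called for the 5p strand, 0% for the 3p strand and 0% between them. At an unadjusted p under 0.05 the counts of members were 2, 3 and 1. The replicates here are 2 renal lines, with 1 array each. The largest member value was that of SLC7A1 with miR-139-3p in A498, -1.04, where 0.175% of all genes stood at or below -1. In 786-O the same strand gave -0.13, and miR-139-5p gave 0.12 in A498 and -0.16 in 786-O. SLC7A1 was therefore low on 1 of the 4 arrays, and SLC7A5 (-0.87) and NUPR1 (-0.74) were the next lowest on that array. For the 5p strand the median of the members was 0.07 in A498 and -0.05 in 786-O, and for the 3p strand -0.16 and -0.11, where the medians of all genes lay between 0.00 and 0.01. The sign of 3 of these medians turned with the processing. With median centring the 3p strand had 0.0014 in A498 and 0.05 in 786-O, where all genes had 0.04 and 0.07. With the mean of the arrays of other lines subtracted to remove dye bias, a mean that holds the low miR-490 values, the 3p strand had 0.08 in A498 and 0.09 in 786-O, and the 5p strand 0.17 in 786-O. With miR-139-3p 37 of 47 members were below 0 in A498 and 37 of 46 in 786-O, against 48.1% and 47% of all genes, but with median centring only 23 and 16 were, against 36.1% and 23% of all genes, so the lean below 0 depended on the processing. With miR-139-5p 18 of 47 were below 0 in A498 and 36 of 46 in 786-O, against 47.1% and 49.2%, and with the dye bias removed 6 and 7 were.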

How the data were processed

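Members and lists were chosen with earlier results of these data known. Per the file headers, the authors scanned 8 arrays of 1 slide with Agilent Feature Extraction 11.5.1.1 and deposited linear intensity per spot and channel with its local background, not normalized. The scanner's own log10 ratio per spot, also deposited, served as an alternative after conversion to log2. Outlier spots (112 to 194 per array) were left out. Background was corrected by normexp (offset 50), ratios were normalized within arrays by loess with control spots at weight 0, and levels by Aquantile, in limma 3.58.1 (R 4.3.3). The offset pulls dim probes toward 0. The probe with the highest mean intensity stood for a gene. Groups with 2 arrays were tested against 0 in 1 limma fit of 8 arrays (5 group coefficients, 3 residual degrees of freedom), with Benjamini-Hochberg adjustment over all tested probes. The number of arrays limits the precision. The miR-490 groups hold 1 array each and got no test. Named were ASNS, members at or beyond 1 on any array or called by limma, and the ends of each role group on the miR-490-5p and si-GINS1 arrays. Members outside that rule (NARS, CARS, TARS, MARS, PSPH, ALDH18A1, CTH, STC2, VLDLR and SLC1A4), and HSPA5, were named after their values were seen. The limma script was tested on simulated data. Python 3.11.15 with pandas 2.3.3, numpy 2.4.6 and matplotlib 3.10.9 made the tables and figures. The miR-139 arrays pair by cell line, with a correlation of paired deviations of 0.08 over 22183 probes, and the block was an alternative. Alternatives changed 1 choice at a time, except that the variance trend and the robust prior were set together.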

Additional observations from a re-analysis of the deposited data

How the results depend on the processing

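The median of the members kept its sign in HCT116 under the alternatives run, and elsewhere turned on 4 arrays. With median centring it was 0.0014 for miR-139-3p in A498, 0.047 for it in 786-O and 0.28 for siRNA 1, where the medians of all genes were 0.04, 0.07 and 0.18. With the dye bias removed it was 0.081, 0.086 and 0.048 on these arrays and 0.17 for miR-139-5p in 786-O. The mean subtracted for this holds the low miR-490 values, which raises the members on these arrays. With miR-490-5p 19 to 27 members were at or below -1 over the planned settings, and the median of the members moved to -1.18 with the scanner log ratio, -1.14 with an offset of 10, -1.10 with no background correction and -0.83 with median centring. With miR-490-3p the count at or below -1 moved to 2 with median centring and 3 with the dye bias removed, and the median to -0.085 and -0.19. The difference of the strands was at or above 1 for 11 members with the scanner log ratio and 14 with an offset of 10. It was so for 12 with no background correction and 16 with median centring. The medians were 0.75, 0.71, 0.70 and 0.75 in that order. With the median over the probes of a gene the count was lower, at 5, with a median of 0.60. For si-GINS1 limma called 0 members with the scanner log ratio, with only the arrays compared and with the trend and robust prior, 1 with no filter on dim probes, 1 with the median over the probes of a gene, 7 of 45 with the dye bias removed (15.6%, all probes 5.98%), 17 of 45 with the mock as a random block (37.8%, all probes 37.8%, estimated correlation -0.67), and 8 to 21 with 1 array left out (all probes 23.4% and 31.9%), where calls were 1 lower and 7 higher without siRNA 1 and 15 lower and 6 higher without siRNA 2. With the dye bias removed all 7 called members were higher. The mean subtracted there also holds the low miR-490 values on which the members were chosen, which raises them with both siRNAs. Their share of calls in that setting can therefore not be weighed against that of all probes. The cause of the other changes in the count was not tested. Under every alternative run limma called 0 members for miR-139-5p, miR-139-3p and their difference. For that difference the fit with the cell line as a replicate block also gave 0 members and changed no call. Dim probes limit VLDLR, SLC1A4, CBS and STC2.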
